A study of Mus musculus with 12 samples.

Results

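The genes described here are 10 mouse genes that tell dendritic cell subsets apart or mark a stage of dendritic cell life: Flt3, Irf8, Batf3, Zbtb46, Xcr1, Clec9a, Cd209a, Siglech, Ccr7 and Fscn1. They were chosen by name, and each symbol matched 1 of the 78298 gene identifiers in a table of raw RNA-seq counts. All 10 passed the filter on low counts and were among the 22190 genes tested. The table covers 12 mouse lung libraries in 4 groups of 3: normal adjacent lung and tumours, each under VEH and under HDM. HDM is house dust mite, a common source of inhaled allergens, given as a chronic exposure per the series text. VEH and LLC, the name the labels give the tumours, are not spelled out there. Tumours visible to the eye were cut away from neighbouring lung under a binocular microscope, so every library is RNA of a whole piece of tissue and none holds sorted dendritic cells. The labels give no strain, age, genotype or dose, and they do not say whether replicates came from separate animals, so p-values measure the spread between these samples, which may in part be technical.

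Dendritic cells take up antigen in tissue and present it to T cells. They arise from bone marrow precursors that depend on the growth factor receptor Flt3, and they fall into conventional type 1 cells, which need the transcription factors Irf8 and Batf3 and carry Xcr1 and Clec9a, conventional type 2 cells, and plasmacytoid cells, which make type I interferon. On maturation, conventional cells raise Ccr7, the receptor that guides them to the draining lymph node, and the actin-bundling protein Fscn1. Several of these genes are also active outside dendritic cells: Zbtb46 in endothelium, Irf8 in monocytes, macrophages and B cells, Ccr7 in naive T cells and B cells, and Fscn1 in many carcinomas. In tissue RNA such as this, fewer cells of a type and less RNA per cell cannot be told apart.

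Total counts ran from 20608682 to 32765364 per library, and counting noise alone was exceeded between every pair of replicates. The names of the libraries carry a prefix, and each of 6 prefixes joins 1 normal and 1 tumour library. For 2 of them the treatment labels conflict, since tumour HDM replicate 2 has the prefix of normal VEH replicate 2, and tumour VEH replicate 3 that of normal HDM replicate 3. Labels were used as given, and main counts are also given without these 4 libraries. The 8 lung epithelial genes listed, such as surfactant genes, summed to 58468 to 114833 CPM in normal and 40.2 to 24859 CPM in tumour libraries, where CPM are counts scaled to a common library total. Normal VEH replicate 2 stood apart from the other libraries of its group: 8 genes shared by leukocytes summed to 1344 CPM there against 431 and 289, 8 cell cycle genes to 176 CPM against 35 and 32.2, and 6 blood endothelial genes to 1148 CPM against 2389 and 2591.

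Within a group, comparison of genes was made on CPM per kilobase of the deposited gene length. Fscn1 had the highest mean of the 10 genes in all 4 groups, at 15.2 ± 12.2 in normal VEH, 10.3 ± 3.85 in normal HDM, 138 ± 14.7 in tumour VEH and 132 ± 9.09 in tumour HDM libraries (SD, n = 3). Siglech had the lowest mean in all 4, between 0.127 and 0.476 CPM per kilobase. Clec9a and Irf8 followed Fscn1 in both tumour groups, Irf8 ahead under VEH (9.16 ± 3.57 against 5.85 ± 1.01) and Clec9a ahead under HDM (9.04 ± 2.60 against 4.26 ± 1.08). Batf3, Cd209a, Xcr1, Flt3 and Zbtb46 lay between 0.645 and 1.18 CPM per kilobase in VEH tumours, each within the SD of a neighbour in the order. In HDM tumours Batf3, Zbtb46, Cd209a and Xcr1 lay between 0.233 and 0.313 and did not differ beyond their spread. All levels that follow are CPM without division by length, so they compare a gene between libraries and not genes with each other.

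**Figure D1:**
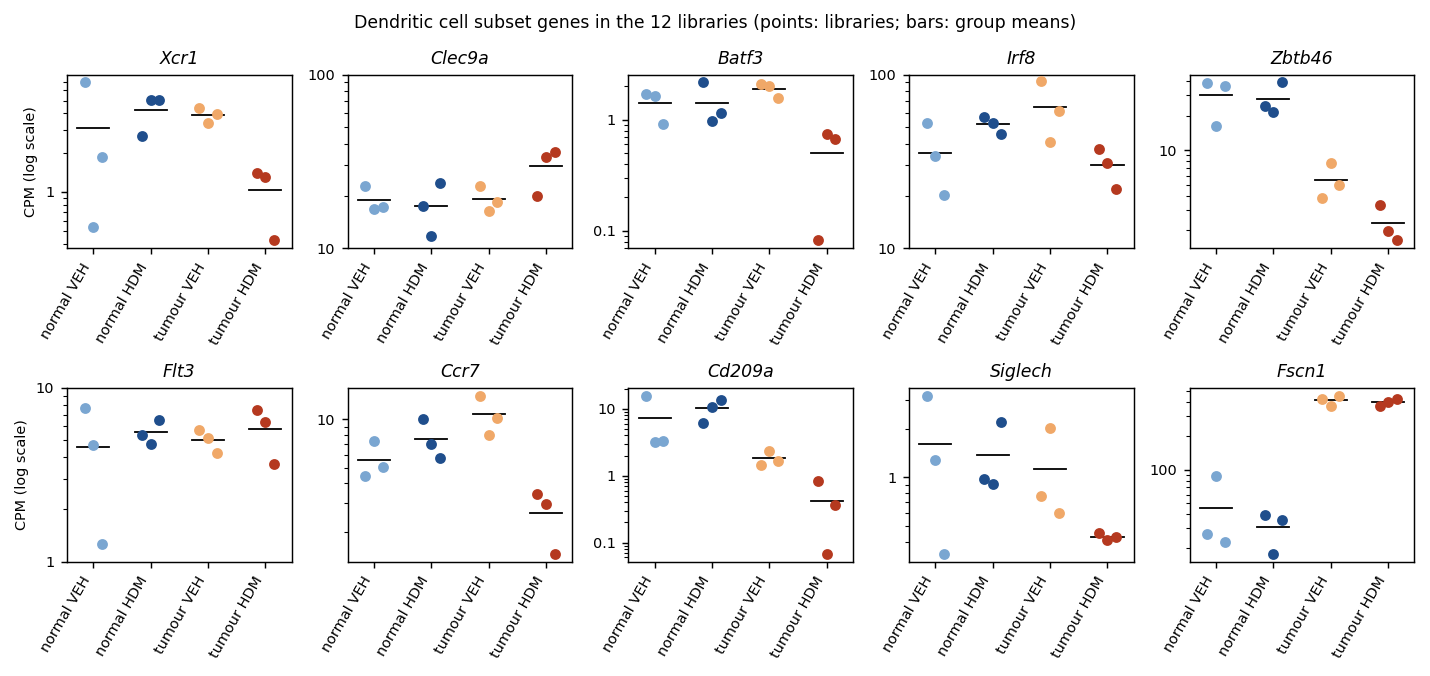
Level of each of the 10 genes in each of the 12 libraries, in CPM on a log scale, 3 points per group with a bar at the group mean. Fscn1 is the gene whose tumour libraries, at 368 to 455 CPM, all lie above its normal libraries under both treatments, and Zbtb46 and Cd209a are the genes whose tumour libraries all lie below.

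Tumours under VEH differed from normal lung under VEH in few of these genes. Fscn1 rose and Zbtb46 fell, and no other member passed an adjusted p of 0.05 (edgeR quasi-likelihood test, Benjamini-Hochberg adjustment over all genes tested). That is 2 of 10 called, where 38.9% of all genes tested were called, 18.2% as higher and 20.6% as lower. At an unadjusted p below 0.05 there were 5 of 10 members and 49.8% of all genes. Ccr7 was higher and Cd209a lower in all 3 tumour than in all 3 normal libraries without passing the test. The ranges did not overlap for 4 of 10 members, 2 in each direction, where this held for 52.4% of all genes, 23.9% higher and 28.5% lower. Without the 4 libraries of conflicting prefixes the members called were again 1 higher and 1 lower.

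Under HDM, tumours differed from normal lung in 6 of 10 members, where 51.9% of all genes were called. Fscn1 and Clec9a rose, and Zbtb46, Ccr7, Cd209a and Xcr1 fell. The 4 falls compare with 28.9% of all genes called lower and the 2 rises with 23.0% called higher. The tumour range lay wholly below the normal range for 7 of 10 members, and wholly above it for 1, against 33.5% and 29.6% of all genes (63.1% in either direction). At an unadjusted p below 0.05 there were 7 of 10 members and 57.9% of all genes. The members' median log2 fold change was -1.52 and the median of all genes -0.08. Without the 4 libraries of conflicting prefixes 4 members were called, 1 higher and 3 lower. Both tumour comparisons and their difference share libraries with the comparisons of HDM and VEH, so they are not independent of each other.

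Between HDM and VEH tumours, no member passed the correction in edgeR (0 of 10, where 0.0946% of all genes, 21 in number, were called, 0.00901% as higher and 0.0856% as lower). At an unadjusted p below 0.05 there were 6 of 10 members against 16.7% of all genes: Xcr1, Batf3, Irf8, Zbtb46, Ccr7 and Cd209a, each lower under HDM. With Siglech added, 7 of 10 members had every HDM tumour below every VEH tumour, against 10.7% of all genes, and none had the reverse, against 11.3% (22.0% in either direction). DESeq2 called 2 members, Batf3 (log2 fold change -1.93, adjusted p = 0.0361) and Ccr7 (-2.07, adjusted p = 0.000103). It called 1194 of the 21787 genes to which it gave an adjusted p. The members' median log2 fold change was -1.32 and that of all genes -0.03. Lung tissue markers in the same tumours were as follows: the 8 epithelial genes summed to 2552 to 24859 CPM under VEH and 40.2 to 3423 CPM under HDM (median -1.59, 0 called), with HDM replicate 3 at 40.2 CPM apart from the others, and 5 of 6 blood endothelial genes had lower, non-overlapping ranges (median -1.25, 0 called). The part of residual lung in the members' differences was not tested.

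Between HDM and VEH in normal lung, no member was called (0 of 10 by edgeR and by DESeq2), and none had an unadjusted p below 0.05. Of all genes, 0% were called by edgeR and 24 genes by DESeq2, and 5.54% had an unadjusted p below 0.05. The ranges overlapped for all 10 members, where they were apart for 10.3% of all genes (4.47% higher, 5.85% lower). Log2 fold changes ran from -0.57 (Fscn1) to 0.54 (Irf8), within the spread of the replicates.

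**Figure D2:**
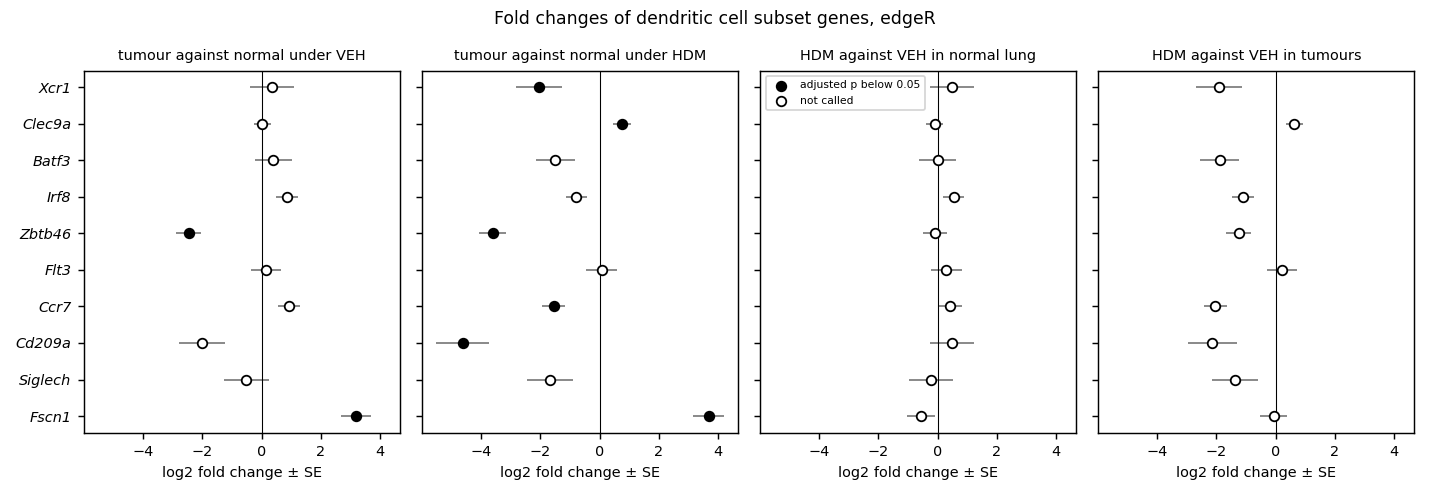
Log2 fold change ± SE of each of the 10 genes in 4 comparisons, from edgeR on 3 libraries per group, with filled points for genes called at an adjusted p below 0.05. In tumours, HDM against VEH, 7 of the 10 points lie at -1.10 or lower and none is filled.

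Flt3, the receptor tyrosine kinase on which dendritic cell precursors depend (ENSMUSG00000042817, chr5:147267551-147337483 on GRCm39), passed the test in no comparison. In normal lung it stood at 7.64, 4.72 and 1.26 CPM under VEH (replicates 1, 2 and 3, the order used for every gene) and at 5.37, 4.76 and 6.55 CPM under HDM. In tumours it was at 5.69, 5.17 and 4.24 CPM under VEH and at 7.43, 6.39 and 3.64 CPM under HDM. All 4 ranges overlapped, and the lowest value of all was in a normal VEH library. The log2 fold change between tumour and normal was 0.15 ± 0.52 (SE) under VEH and 0.06 ± 0.52 under HDM, and between HDM and VEH tumours 0.21 ± 0.52 (edgeR adjusted p from 0.834 to 0.926).

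Irf8, a transcription factor of conventional type 1 and plasmacytoid cells and of monocytes (ENSMUSG00000041515, chr8:121463096-121485659), had tissue differences of opposite sign under VEH and HDM, neither past the main test and both past it under some alternatives. Its levels were 52.5, 33.9 and 20.2 CPM in normal VEH and 57.1, 52.6 and 45.5 CPM in normal HDM libraries. They were 91.2, 41.2 and 61.5 CPM in VEH tumours and 37.2, 30.9 and 22 CPM in HDM tumours. Every HDM tumour was below every VEH tumour and below every normal HDM library, while VEH tumours and normal VEH libraries overlapped. The log2 fold change of tumour against normal was 0.86 ± 0.36 under VEH (edgeR adjusted p = 0.0784) and -0.78 ± 0.36 under HDM (adjusted p = 0.0896). HDM tumours differed from VEH tumours by -1.10 ± 0.36 (edgeR adjusted p = 0.21). The difference between the 2 tissue effects was -1.65 ± 0.51, with an adjusted p of 0.478 in edgeR. The rise under VEH passed the test when normal VEH replicate 1 was left out (1.26, adjusted p = 0.0286) and when tumour VEH replicate 2 was left out (1.11, adjusted p = 0.0347). Irf8 also passed in both treatments with a block, for library-name prefix (0.97, adjusted p = 0.0286 under VEH and -0.88, adjusted p = 0.0284 under HDM) and for replicate number (0.91, adjusted p = 0.0265 and -0.82, adjusted p = 0.0271). It passed under HDM with only the compared groups in the edgeR fit (-0.81, adjusted p = 0.0252), and under VEH with library size scaling (1.00, adjusted p = 0.0447).

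Batf3, the partner factor without which conventional type 1 cells fail to develop (ENSMUSG00000026630, chr1:190830044-190841142), was near 1 to 2 CPM outside the HDM tumours. It was at 1.72, 1.64 and 0.926 CPM in normal VEH, 2.17, 0.982 and 1.14 CPM in normal HDM and 2.08, 2.01 and 1.57 CPM in tumour VEH libraries. In HDM tumours it was at 0.0821, 0.751 and 0.667 CPM, which are 2, 22 and 22 counts. These 3 values lay below all 9 others. The log2 fold change was -1.49 ± 0.65 against normal HDM lung (edgeR adjusted p = 0.0766, DESeq2 adjusted p = 0.0238) and -1.89 ± 0.66 against VEH tumours (edgeR adjusted p = 0.218). Under VEH it was 0.40 ± 0.63 (adjusted p = 0.631). Gm70128 shares 469 of 1597 exon bases with Batf3 on the opposite strand and had 361 counts over all libraries against 409 for Batf3. Gm70128 fell in HDM tumours against normal HDM lung by 1.91 ± 0.50 on the log2 scale (adjusted p = 0.00884). Whether counting used the strand is not given in the sources used here, so reads of this pair cannot be told apart.

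Zbtb46, a zinc finger factor of conventional dendritic cells that endothelial cells express too (ENSMUSG00000027583, chr2:181012111-181104879), fell in tumours under both treatments. Levels were 38.2, 16.1 and 36.3 CPM in normal VEH and 24.0, 21.4 and 38.9 CPM in normal HDM libraries. In tumours they were 3.82, 7.66 and 4.98 CPM under VEH and 3.33, 1.98 and 1.64 CPM under HDM. All 6 tumours were below all 6 normal libraries, and all HDM tumours below all VEH tumours. The log2 fold change of tumour against normal was -2.46 ± 0.43 under VEH (edgeR adjusted p = 0.00193) and -3.61 ± 0.45 under HDM (adjusted p = 0.000214), and both calls held with any 1 library left out. HDM tumours differed from VEH tumours by -1.25 ± 0.42 (edgeR adjusted p = 0.213). Because all 6 tumours lay below all 6 normal libraries, the tumour had to be lower in all 6 pairs that a prefix joins.

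The 6 blood endothelial genes of the list used here moved with Zbtb46. Their summed level ran from 1148 to 2591 CPM in normal VEH, from 2100 to 2495 CPM in normal HDM, from 270 to 444 CPM in tumour VEH and from 89.7 to 242 CPM in tumour HDM libraries. All 6 fell in tumours under each treatment, beside 20.6% (VEH) and 28.9% (HDM) of all genes called lower. Their medians were -2.75 and -3.91 on the log2 scale. Among them were Cldn5, a tight junction protein, and Cdh5, the endothelial cadherin. After group means were removed, Zbtb46 and the list correlated over the 12 libraries with r = 0.93, and Zbtb46 and the 8 leukocyte genes with r = -0.73. Normal VEH replicate 2 was the lowest of its group for Zbtb46 (16.1 CPM) and the endothelial sum (1148 CPM), and the highest for the leukocyte sum (1344 CPM). The correlations without that library were not computed. The part of endothelial cells in the Zbtb46 result was not tested.

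**Figure D3:**
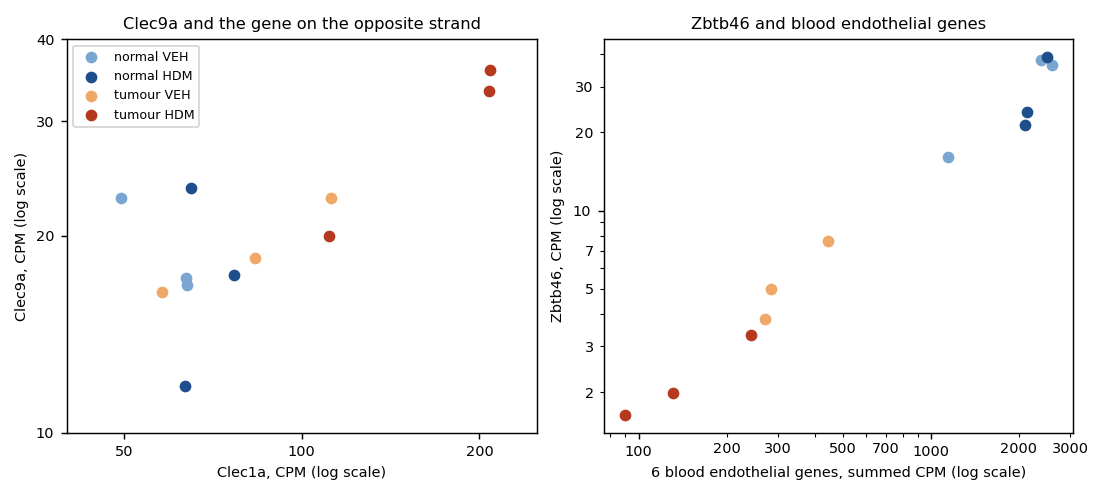
Left, Clec9a against Clec1a, the gene on the opposite strand, in CPM on log axes. Right, Zbtb46 against the summed CPM of 6 blood endothelial genes on log axes. Each point is 1 of the 12 libraries, coloured by group, and 2 HDM tumours have the highest level of both Clec9a and Clec1a.

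Xcr1, the receptor of conventional type 1 cells for the chemokine Xcl1 (ENSMUSG00000060509, chr9:123681380-123691094), was lowest in HDM tumours but for 1 normal library. It stood at 6.90, 0.535 and 1.85 CPM in normal VEH, 2.66, 5.06 and 5.08 CPM in normal HDM, 4.42, 3.35 and 3.97 CPM in tumour VEH and 1.40, 1.30 and 0.425 CPM in tumour HDM libraries. The HDM tumours were below all normal HDM libraries and below all VEH tumours. Xcr1 fell in tumours under HDM by 2.04 ± 0.78 on the log2 scale (edgeR adjusted p = 0.047). That call was lost in 10 of 12 fits that left out 1 library, with fold changes from -2.29 to -1.51 and adjusted p up to 0.164. It held without normal VEH replicate 1 and without normal VEH replicate 2. It was also lost without the 4 libraries of conflicting prefixes (-1.97, adjusted p = 0.103). Against VEH tumours the difference was -1.91 ± 0.78 (edgeR adjusted p = 0.262), and under VEH tumour and normal differed by 0.34 ± 0.74 (adjusted p = 0.732). The VEH value moved to 1.72 without normal VEH replicate 1. Gm57030, on the opposite strand, shares 1071 exon bases with Xcr1 and had 251 counts against 932.

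Clec9a, a lectin by which conventional type 1 cells sense actin exposed on dead cells (ENSMUSG00000046080, chr6:129385825-129401726), went the other way from Xcr1. It was at 22.9, 16.8 and 17.2 CPM in normal VEH, 17.4, 11.8 and 23.7 CPM in normal HDM and 22.9, 16.4 and 18.5 CPM in tumour VEH libraries. In HDM tumours it was at 20, 33.4 and 36.0 CPM. Replicates 2 and 3 of that group had the highest levels of all 12 libraries, and replicate 1 lay among the rest. Clec9a rose in tumours under HDM by 0.76 ± 0.29 on the log2 scale (edgeR adjusted p = 0.04996), although the ranges overlapped. The call was lost in 8 of 12 fits that left out 1 library (0.54 to 1.13, adjusted p up to 0.162). It held without normal HDM replicate 3, tumour VEH replicate 1, tumour VEH replicate 3 or tumour HDM replicate 1. DESeq2 gave 0.69 with an adjusted p of 0.0673, and the replicate block gave an adjusted p of 0.0544. Against VEH tumours the difference was 0.63 ± 0.29 (adjusted p = 0.31), and under VEH tumour and normal differed by 0.02 ± 0.29 (adjusted p = 0.955).

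Of the 3293 exon bases of Clec9a, 2538 (77.1%) overlap Clec1a, a lectin gene on the opposite strand that endothelial and myeloid cells express. Clec1a had 31715 counts over all libraries and Clec9a 6911. Clec1a was at 111, 208 and 208 CPM in HDM tumours, at 112, 57.9 and 83.3 CPM in VEH tumours and at 49.3 to 76.8 CPM in normal libraries. It rose in tumours under HDM by 1.36 ± 0.28 (edgeR adjusted p = 0.00249). The 2 genes' deviations from group means correlated with r = 0.54 over 12 libraries. Reads of Clec1a counted for Clec9a cannot be told apart from its own here.

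Conventional type 1 cells have other markers, and 10 were listed, all of which were tested. In tumours under HDM 8 fell and 1 rose, beside 28.9% and 23.0% of all genes, with a median log2 fold change of -1.82 against -0.08 for all genes. The 8 lung epithelial genes all fell there too (median -4.56), and their part in this list's fall was not tested. Cadm1, an adhesion molecule that epithelium also carries, was at 225 ± 33.2 CPM in normal HDM lung (SD, n = 3) and fell by 2.0 ± 0.26 (edgeR adjusted p = 0.000247), and Naaa, a lysosomal amidase, fell by 1.71 ± 0.31 (adjusted p = 0.00121). Cd24a, which epithelium and B cells also carry, was at 595 ± 245 CPM in normal HDM lung and fell by 4.27 ± 1.17 (adjusted p = 0.0119). Snx22, a sorting nexin, rose by 0.63 ± 0.12 (adjusted p = 0.00201). It shares 1072 exon bases with Ppib on the opposite strand, which had 81646 counts against 58689, so reads of this pair cannot be told apart. Under VEH 2 rose and 1 fell (38.9% of all genes called), with a median of 0.02. In HDM against VEH tumours 0 of 10 were called, 6 had non-overlapping lower ranges (10.7% of all genes) and the median was -0.90.

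Cd209a, a C-type lectin of conventional type 2 and monocyte-derived dendritic cells (ENSMUSG00000031494, chr8:3793397-3798984), was lower in every tumour than in every normal library. It was at 15.7, 3.15 and 3.28 CPM in normal VEH lung and at 6.23, 10.8 and 13.7 CPM in normal HDM lung. In tumours it was at 1.44, 2.38 and 1.66 CPM under VEH and at 0.821, 0.0683 and 0.364 CPM under HDM, the latter from 20, 2 and 12 counts. HDM tumours were again below VEH tumours without overlap. Under HDM Cd209a fell 24.7-fold (log2 fold change -4.62 ± 0.88, edgeR adjusted p = 0.00175), a call that held with any 1 library left out. Under VEH the value was -2.01 ± 0.77 (adjusted p = 0.0607), and it passed the test in DESeq2 (-2.05, adjusted p = 0.018), without normal VEH replicate 2 (-2.37, adjusted p = 0.0356) and without tumour HDM replicate 2 (-1.90, adjusted p = 0.0475). Without normal VEH replicate 1, which had the highest level of all, the VEH value was -0.81. HDM tumours differed from VEH tumours by -2.14 ± 0.82 (edgeR adjusted p = 0.245).

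The Cd209 family has 7 listed members of similar sequence, so reads can be split among them by the counting. Besides Cd209a, Cd209b and Cd209f were tested. Cd209b, known from marginal zone macrophages, had 0 counts in all 6 tumours, which allows up to 3 counts in each, and was at 0.663 ± 0.657 CPM in normal VEH and 1.07 ± 0.0986 CPM in normal HDM libraries (SD, n = 3). It passed the test as lower in tumours under both treatments (edgeR adjusted p = 0.037 and 0.0168). Cd209f was at 1.87 ± 2.38 CPM (VEH) and 1.38 ± 1.87 CPM (HDM) in normal lung and at 0.543 ± 0.554 and 0.325 ± 0.370 CPM in tumours, and it was not called. Cd209c, Cd209d, Cd209e and Cd209g did not pass the filter on low counts.

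Of 10 listed markers of conventional type 2 cells 8 were tested. In tumours under HDM 2 rose and 3 fell (median -0.53, beside 51.9% of all genes called), and under VEH 1 rose and 1 fell (median 0.09, beside 38.9%). Mgl2, a galactose-binding lectin, fell in tumours under HDM by 2.56 ± 0.46 (edgeR adjusted p = 0.0012), and its value in HDM against VEH tumours was -2.90 ± 0.46 (adjusted p = 0.0527). Klf4, a transcription factor shared with epithelium and endothelium, fell by 2.20 ± 0.60 under VEH (adjusted p = 0.0162) and by 2.19 ± 0.60 under HDM (adjusted p = 0.0116). Notch2 rose under HDM by 0.97 ± 0.23 (adjusted p = 0.0053). Sirpa, an inhibitory receptor that macrophages share, was at -0.51 ± 0.59 (adjusted p = 0.494).

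Siglech, a sialic acid-binding lectin of plasmacytoid cells (ENSMUSG00000051504, chr7:55417926-55429195), was low everywhere. It was at 3.20, 1.29 and 0.337 CPM in normal VEH, 0.983, 0.906 and 2.21 CPM in normal HDM, 0.765, 2.01 and 0.600 CPM in tumour VEH and 0.452, 0.410 and 0.425 CPM in tumour HDM libraries. The HDM tumours lay below all VEH tumours and all normal HDM libraries, and the lowest value was in normal VEH replicate 3. No comparison passed the main test: the log2 fold change was -0.51 ± 0.75 under VEH (edgeR adjusted p = 0.603), -1.66 ± 0.78 under HDM (adjusted p = 0.0948) and -1.39 ± 0.78 in HDM against VEH tumours (edgeR adjusted p = 0.391). With only the compared groups in the edgeR fit, Siglech passed under HDM (-1.69, adjusted p = 0.0328). Of 12 other plasmacytoid genes, 5 rose and 1 fell in tumours under VEH (median 0.99, beside 38.9% of all genes called), and 2 rose and 3 fell under HDM (median -0.21, beside 51.9%). Among the risers under VEH were Bst2, or tetherin (1.42 ± 0.37, adjusted p = 0.0135), and Irf7, the factor of type I interferon induction (3.21 ± 0.54, adjusted p = 0.00182), both of which interferon induces in many cell types. Cox6a2, also a muscle gene, fell under VEH by 2.96 ± 0.85 (adjusted p = 0.0194) and under HDM by 5.23 ± 0.95 (adjusted p = 0.00135). In HDM against VEH tumours none of the 12 was called, 5 had lower and 1 had higher non-overlapping ranges (10.7% and 11.3% of all genes), and the median was -1.23.

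Promoter windows were found for 9 of the 10 members. The windows of Irf8, Batf3 and Siglech are shown because they are the 3 that hold the letters TTCNNNGAA, the interferon gamma-activated site (N is any base). The windows are the 250 bases before the gene start in RefSeq's table for GRCm38.p6, and the capitals mark each match. Ccr7 has no entry in that table. For Irf8 it is chr8:120736108-120736357, for Batf3 chr1:191098164-191098413 and for Siglech chr7:55767934-55768183, each on the plus strand and written 5′ to 3′. Irf8 has a second window in that table, chr8:120738389-120738638, which holds no match and is not shown. Below, the Irf8 window is the one shown.
Irf8: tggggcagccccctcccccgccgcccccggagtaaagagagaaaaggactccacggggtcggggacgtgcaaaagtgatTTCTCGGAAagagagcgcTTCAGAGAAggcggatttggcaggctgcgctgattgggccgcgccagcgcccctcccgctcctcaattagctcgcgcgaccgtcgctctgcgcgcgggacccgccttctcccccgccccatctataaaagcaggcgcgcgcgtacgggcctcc
Batf3: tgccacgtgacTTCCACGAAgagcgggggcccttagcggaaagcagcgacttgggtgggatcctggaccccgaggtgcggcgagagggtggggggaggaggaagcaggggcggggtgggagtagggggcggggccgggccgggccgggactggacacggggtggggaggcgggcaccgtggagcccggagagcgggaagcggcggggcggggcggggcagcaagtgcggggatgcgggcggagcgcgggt
Siglech: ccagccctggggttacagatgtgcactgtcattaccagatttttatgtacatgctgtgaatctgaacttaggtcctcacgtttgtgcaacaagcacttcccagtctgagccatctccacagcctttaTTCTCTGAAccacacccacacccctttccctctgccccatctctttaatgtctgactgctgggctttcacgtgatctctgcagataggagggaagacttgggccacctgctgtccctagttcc

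The Irf8 window holds TTCTCGGAA at 171 and TTCAGAGAA at 153 bases before the start. The Batf3 window holds TTCCACGAA at 239 bases and the Siglech window TTCTCTGAA at 123 bases before it. Of all 32841 windows of this length 7.02% hold a match. The 3 genes with it were lower in every HDM than in every VEH tumour. Of the genes whose windows lack it, Xcr1, Zbtb46 and Cd209a were lower in the same way. Clec9a, Flt3 and Fscn1 lack it too, and their tumour ranges overlapped. The part of these matches in the members' levels was not tested. Other motifs were searched on both strands in the same windows. TGANTCA, the AP-1 site, was in the Zbtb46 window (TGACTCA at 61 bases before the start that RefSeq's table gives) and in 6.75% of all windows. Whether that start is the one used by Zbtb46 in lung was not checked. The windows and the gene coordinates are on different builds and were not compared. The interferon-type repeat, the ETS and IRF composite, the NF-kB site and the PU.1 core were in no member window and in 2.98%, 2.3%, 0.356% and 2.44% of all windows, and the first pair of these can share bases. A match describes these letters and is not a measured site.

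Ccr7, the chemokine receptor for Ccl19 and Ccl21 (ENSMUSG00000037944, chr11:99035022-99045911), was higher in tumours than in normal lung under VEH and lower under HDM. It was at 4.44, 7.36 and 5.05 CPM in normal VEH, 9.99, 7.02 and 5.74 CPM in normal HDM, 14.0, 8.03 and 10.2 CPM in tumour VEH and 3.41, 2.97 and 1.46 CPM in tumour HDM libraries. Every VEH tumour lay above every normal VEH library, and the 3 HDM tumours were the lowest of all 12. The log2 fold change of tumour against normal was 0.93 ± 0.38 under VEH (edgeR adjusted p = 0.0732) and -1.54 ± 0.39 under HDM (adjusted p = 0.00742), and the fall under HDM held with any 1 library left out. The VEH value passed the test without tumour HDM replicate 3 (1.03, adjusted p = 0.0359). HDM tumours differed from VEH tumours by -2.04 ± 0.39 (edgeR adjusted p = 0.0936). The difference between the tissue effects was -2.47 ± 0.54, with an adjusted p of 0.41 in edgeR and 0.00607 in DESeq2. At an unadjusted p below 0.05 this difference was also found for Irf8, Cd209a and Xcr1, which makes 4 of 10 members against 9.39% of all genes, while 0 of 10 members and 0% of all genes passed the edgeR correction.

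T and B cells also use Ccr7, and their genes were measured. The 10 T and NK cell genes summed to 32.0 to 49.0 CPM in normal VEH, 45.9 to 63.9 CPM in normal HDM, 62.7 to 84.4 CPM in tumour VEH and 3.88 to 32.6 CPM in tumour HDM libraries. In tumours 2 rose and 0 fell under VEH (38.9% of all genes called), and 0 rose and 3 fell under HDM (51.9%). Of these 10 genes 7 had lower and 0 had higher non-overlapping ranges in HDM than in VEH tumours, against 10.7% and 11.3% of all genes. Their median there was -2.22 and 0 were called, against 0.0946% of all genes. Trac, a T cell receptor constant gene, was at -2.76 ± 0.90 (edgeR adjusted p = 0.208). With group means removed, Ccr7 correlated over 12 libraries with these T and NK cell genes at r = 0.78 and with the mature dendritic cell list at r = 0.85. Values were also high for dendritic cell development regulators (0.83), plasmacytoid genes (0.82), interferon gamma response genes (0.77) and leukocyte genes (0.75). For B cell genes r was 0.52, and for blood endothelial genes -0.01. The 8 B cell genes summed to 38.9 to 117 CPM in normal and 4.06 to 21.3 CPM in tumour libraries. The part of T and B cells in the Ccr7 result was not tested. Gm57398, on the opposite strand, shares 133 exon bases with Ccr7, had 457 counts against 2032, and fell in tumours under HDM by 1.55 ± 0.49 (adjusted p = 0.0221).

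Fscn1, the actin-bundling protein of mature dendritic cells (ENSMUSG00000029581, chr5:142946098-142958953), rose in tumours under both treatments and did not follow Ccr7. It was at 26.9, 88.3 and 22.5 CPM in normal VEH, 39.7, 17.8 and 35.5 CPM in normal HDM, 424, 368 and 455 CPM in tumour VEH and 368, 401 and 422 CPM in tumour HDM libraries. Tumours under the 2 treatments overlapped, and all 6 lay above all normal libraries. The rise was 9.05-fold under VEH (log2 3.18 ± 0.50, edgeR adjusted p = 0.00137) and 12.8-fold under HDM (3.68 ± 0.51, adjusted p = 0.000388), and both calls held with any 1 library left out. Under VEH the log2 value was 4.08 without normal VEH replicate 2, the library with the high cell cycle sum. HDM and VEH tumours differed by -0.07 ± 0.46 (adjusted p = 0.961). The 8 cell cycle genes all rose in tumours under each treatment, beside 18.2% (VEH) and 23.0% (HDM) of all genes called higher. Their deviations from group means correlated with those of Fscn1 at r = 0.85 over 12 libraries. Normal VEH replicate 2 was the highest of its group in both, at 88.3 CPM for Fscn1 and 176 CPM for the cell cycle sum. The correlation without that library was not computed. The part of tumour cells in the Fscn1 result was not tested.

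The other 19 listed genes of mature, migratory dendritic cells were all tested. Under VEH 6 rose and 1 fell in tumours (median 0.54), beside 38.9% of all genes called, 18.2% as higher and 20.6% as lower. For tumours under HDM 3 rose and 7 fell (median -1.03), beside 51.9% called, 23.0% as higher and 28.9% as lower. Marcksl1, an actin-regulating protein, rose under VEH (1.56 ± 0.22, edgeR adjusted p = 0.000772) and HDM (1.15 ± 0.22, adjusted p = 0.00171), as did Nfkb2 (1.61 ± 0.22, adjusted p = 0.000711, and 1.22 ± 0.22, adjusted p = 0.00127). Under HDM the chemokine Ccl17 fell by 4.04 ± 0.86 (adjusted p = 0.00311) and Ccl5, which T cells also make, by 1.18 ± 0.39 (adjusted p = 0.0268). In HDM against VEH tumours 0 of 19 were called, 14 had an unadjusted p below 0.05 (16.7% of all genes), 12 had lower and none had higher non-overlapping ranges (10.7% and 11.3% of all genes), and the median was -1.06.

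The ligands of 3 member receptors were measured too. Xcl1, which NK and T cells release to attract Xcr1-bearing cells, was at 0.124 ± 0.123 and 0.0617 ± 0.0765 CPM in normal VEH and HDM libraries, 3.44 ± 1.85 CPM in VEH tumours and 0.592 ± 0.415 CPM in HDM tumours. It rose in tumours under VEH (4.74 ± 1.12, edgeR adjusted p = 0.00813) and under HDM (3.13 ± 1.15, adjusted p = 0.0408). Ccl21a, which lymphatic vessels make to draw Ccr7-bearing cells, was at 55.6 ± 25.5 CPM (VEH) and 59.5 ± 10.4 CPM (HDM) in normal lung and at 27.3 ± 17.9 and 6.80 ± 7.69 CPM in tumours, and it fell under HDM by 3.14 ± 1.16 (adjusted p = 0.0423). Ccl19 fell under HDM by 2.93 ± 1.13 (adjusted p = 0.0494) from levels under 1 CPM. Flt3l, the ligand of Flt3, was at 4.43 ± 2.16 and 5.44 ± 5.77 CPM in normal lung and 1.84 ± 0.761 and 1.54 ± 0.650 CPM in tumours (VEH, then HDM), and was not called (adjusted p = 0.0577 under HDM). Ccl21b and Ccl21d, near-identical copies of Ccl21a, had 0 counts in all libraries, so the counts of Ccl21a may hold reads of the copies. The 6 lymphatic endothelial genes summed to 347 to 595 CPM in normal and 59.4 to 126 CPM in tumour libraries, and their part in the Ccl21a result was not tested.

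Antigen presentation genes, which dendritic cells share with B cells and macrophages, moved in tumours too. All 10 listed class II genes fell in tumours under HDM (median -2.27, beside 28.9% of all genes), and 2 rose and 0 fell under VEH (median 0.70, beside 18.2% and 20.6%). Their summed level ran from 3221 to 4531 CPM in VEH tumours and from 209 to 950 CPM in HDM tumours. The ranges did not overlap in any of the 10 genes, where 10.7% of all genes had lower, non-overlapping ranges. In HDM against VEH tumours 2 of 10 were called, where 0.0946% of all genes were. They were H2-Ab1 (-2.87 ± 0.43, edgeR adjusted p = 0.0446) and H2-DMa (-1.74 ± 0.22, adjusted p = 0.0274). An unadjusted p below 0.05 was found for 10 of 10, against 16.7% of all genes. H2-DMa shares 510 exon bases with Brd2 on the opposite strand, which had 67461 counts against 16783. With only the 2 tumour groups in the fit, 0 genes of the whole table were called, and so it was in 9 of 12 fits that left out 1 library, so both calls are lost there. Those 9 left out normal VEH replicate 3, any normal HDM, any VEH tumour, or HDM tumour replicate 1 or 2. Cd74, the invariant chain, was at -2.56 ± 0.49 (adjusted p = 0.0936).

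Of 12 regulators of dendritic cell development, 1 rose and 2 fell in tumours under each treatment, beside 38.9% (VEH) and 51.9% (HDM) of all genes called. Id2, a factor for conventional type 1 cells that other cells share, fell by 1.13 ± 0.27 under VEH (edgeR adjusted p = 0.0082) and by 1.61 ± 0.27 under HDM (adjusted p = 0.00087). Csf1r, the macrophage growth factor receptor, rose under VEH (1.05 ± 0.25, adjusted p = 0.00941) and was at 0.54 ± 0.25 under HDM (adjusted p = 0.0961). Spi1, the factor PU.1, was at 0.46 ± 0.72 and -0.41 ± 0.72. In HDM against VEH tumours 0 of 12 were called and the median was -0.11.

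Genes of leukocytes in general and of macrophages were not called between HDM and VEH tumours. The 8 leukocyte genes summed to 614 to 1114 CPM in VEH tumours and to 478 to 916 CPM in HDM tumours, which overlap, and 0 of 8 were called between them (median -0.59). The 12 macrophage and monocyte genes summed to 1246 to 1815 CPM under VEH and to 1021 to 1145 CPM under HDM, which do not overlap. Of them 0 of 12 were called, with a median of -0.49, and normal libraries were at 205 to 804 CPM. Lower, non-overlapping ranges in HDM tumours were found for 3 of 8 leukocyte and 3 of 12 macrophage genes, against 10.7% of all genes. Higher ones were found for 0 and 1, against 11.3% of all genes. C1qa, a complement gene of macrophages, rose in tumours under VEH (2.48 ± 0.38, edgeR adjusted p = 0.00118) and HDM (1.86 ± 0.38, adjusted p = 0.00244).

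**Figure D4:**
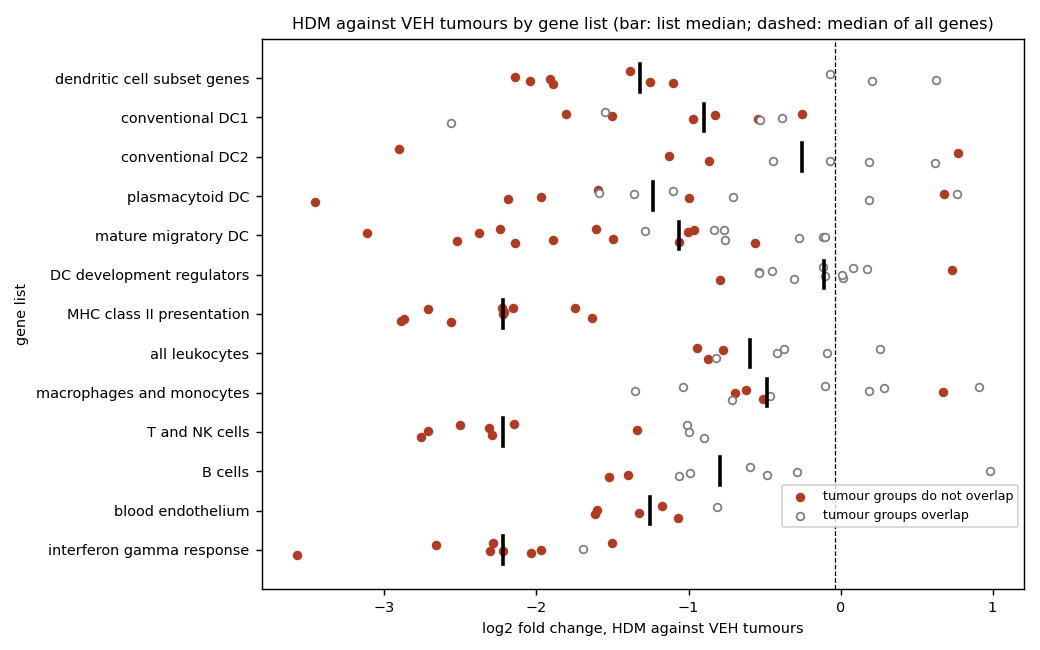
Log2 fold change of HDM against VEH tumours for each tested gene of each list shown, with a bar at the list's median, a dashed line at the median of all genes and filled points where the tumour groups do not overlap. Class II, T and NK cell and interferon gamma response genes have medians of -2.22, the 10 subset genes -1.32 and leukocyte genes -0.59.

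Variation between libraries of a group was compared among the members. With group means removed, Xcr1 and Clec9a, both of conventional type 1 cells, correlated at r = 0.11 and Batf3 and Irf8 at r = 0.00 over 12 libraries that share their normalization. The closest pair was Flt3 and Siglech (r = 0.80), then Irf8 and Flt3 (r = 0.77). Among tested genes with a symbol, Irf8 was most like Cx3cr1, a receptor of monocytes (r = 0.95), Ccr7 like Plxnc1 (0.96), Il1rn (0.96) and Plac8 (0.95), Zbtb46 like Slc35g2 (0.98), and Fscn1 like Dkk2 and Etv4 (both 0.98). Xcr1 was most like Kyat3 (0.94), Clec9a like Gm31223 (0.94), Batf3 like Kxd1 (0.92), Flt3 like Gpr132 (0.93) and Siglech like Gm4366 (0.96). Among the genes most like Cd209a was Actc1 (0.89), a cardiac muscle gene, and 6 cardiac muscle genes summed to 15.6 to 401 CPM in normal and 0.425 to 12.7 CPM in tumour libraries. The part of cardiac tissue in the Cd209a result was not tested. These are the highest values over all genes compared and are given as a description.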

How the data were processed

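RNA was sequenced from 12 mouse lung libraries, made by a stranded dUTP method per the labels' protocols. The deposited table holds raw counts per gene and a gene length, per the file headers. The submitters' processing notes name STAR, Subread, Trim Galore and featureCounts and the build mm39, without versions or roles. The strand setting and annotation are not given in the sources used here. Groups came from the sample labels.

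Symbols and coordinates came from GENCODE M39 on GRCm39, in which 78168 of 78298 identifiers occur. For 4 of 10 members the deposited length equals that release's exon length. Promoter windows came from RefSeq (GRCm38.p6), where 9 of 10 members matched. The model was run with edgeR 4.0.16 under R 4.3.3. It used filterByExpr (minimum count 10), TMM scaling, 1 coefficient per group over all 12 libraries and robust dispersions. The quasi-likelihood test was two-sided, its p-values were adjusted by Benjamini-Hochberg over every gene tested, and the threshold was 0.05. SE was taken as the absolute log2 fold change over root F. Correlations used log2 CPM (prior count 2). The fitting steps were tested on simulated data.

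The members, the 21 gene lists and the tests were chosen with earlier results of these data known. Named genes are all members, ligands and Cd209 genes, of each other list the 4 with the highest level per kilobase and any pathway gene called in HDM against VEH tumours, and the 3 most correlated genes per member, of which not all are printed. Alternatives were DESeq2 1.42.0 (size factors and Wald test), library size only, no filter, only the compared groups, blocks for replicate number and prefix, removal of the 4 conflicting libraries, and leaving out each library.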

Additional observations from a re-analysis of the deposited data

Results flagged for a closer look

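Ccr7 was flagged because its tissue difference went in opposite directions under the treatments. All 3 VEH tumours were above all 3 normal VEH libraries (log2 fold change 0.93), and all 3 HDM tumours were below all 3 normal HDM libraries (-1.54). The test of the difference itself gave -2.47 ± 0.54, which did not pass the correction over all genes in edgeR (adjusted p = 0.41) and passed it in DESeq2 (adjusted p = 0.00607).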

How the results depend on the processing

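The number of genes called in tumours under VEH was 8624, 5603 without the 4 conflicting libraries, and 5733 to 9070 with 1 library left out, lowest without tumour VEH replicate 1. Under HDM it was 11512 and 9822 to 11801. DESeq2 called 24 genes in HDM against VEH normal lung, where edgeR called 0, also in the 12 fits that left out a library. For HDM against VEH tumours edgeR called 21 genes, and other settings gave 8 (library size only), 52 (no filter), 1194 (DESeq2), 0 (only the compared groups), 1 (replicate block), 0 (without the conflicting libraries) and 0 to 24 (1 library left out). For the interaction it was 0, with 199 in DESeq2 and 0 to 6 with 1 library left out. By DESeq2, 2 members were called in HDM against VEH tumours (beside 1194 of 21787 genes) and 1 in the interaction (beside 199 of 24156). With 1 library left out, members called were 2 to 3 under VEH, 4 to 5 under HDM and 0 elsewhere. The cause of these moves was not tested.

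The replicate block gave 3 members called under VEH and 6 under HDM, and 0 in the other comparisons. Deviations of same-numbered libraries correlated with r from -0.36 to 0.30, and those of prefix pairs with r from -0.22 to 0.18. These values cannot decide whether replicate numbers or prefixes pair the samples, because paired pieces of tissue need not share deviations.

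Signs changed only for differences that were not called. Under VEH, Clec9a was -0.012 with DESeq2 size factors, -0.0109 by DESeq2 and -0.074 with the prefix block, and Xcr1 was -0.0735 without the conflicting libraries. Under HDM, Flt3 was -0.0662 with the replicate block and -0.123 with the prefix block. In normal lung, Batf3 was 0.00626, 0.0493, 0.0124, 0.00474, 0.0154, 0.0211 and 0.264 with size factors, library size, no filter, DESeq2, only the compared groups, the replicate block and no conflicting libraries, and without those libraries Xcr1 was -0.189, Cd209a -0.167 and Fscn1 0.237. In tumours, Fscn1 was 0.0192 with library size only. Its interaction was -0.126 with the prefix block and -0.239 without the conflicting libraries.

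With 1 library left out, signs changed in 29 fits. Under VEH, Xcr1 ran from -0.159 to 1.72, Clec9a from -0.0539 to 0.18, Flt3 from -0.292 to 0.745 and Siglech from -1.23 to 0.459, and under HDM, Flt3 ran from -0.0357 to 0.456. In normal lung, Xcr1 ran from -0.0328 to 1.85, Clec9a from -0.378 to 0.116, Batf3 from -0.428 to 0.21, Zbtb46 from -0.409 to 0.103, Flt3 from -0.15 to 0.887, Siglech from -0.772 to 0.733 and Fscn1 from -0.895 to 0.33. In tumours, Flt3 ran from -0.00199 to 0.485 and Fscn1 from -0.149 to 0.0161, and in the interaction Flt3 ran from -0.681 to 0.356 and Fscn1 from -0.399 to 0.827. Scaling by library size alone shifts tumour against normal fold changes up by 0.137 under VEH and 0.176 under HDM. Batf3 (2 to 22 counts in HDM tumours) and Cd209a (2 to 20 counts) are limited by depth.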
